A study of Mus musculus with 9 samples.

Results

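Accessible chromatin was examined at 9 genes of the endothelial tight junction, Cldn5, Ocln, Marveld2, Lsr, F11r, Jam2, Esam, Tjp1 and Cgn. Their members in the data are all peaks that carry one of these gene names in the authors' annotation, plus any peak that covers one of their transcription start sites (TSSs) in the basic set of GENCODE M21. These are 309 of 253457 peaks, of which 302 carry a member's name and 7 were added because they cover the TSS of Lsr. Merging peaks that share at least 1 bp gave 68 member regions among 92495 regions in all. The peaks came from Omni-ATAC-seq, in which a transposase cuts open chromatin, on flow-sorted endothelial cells (ECs) of adult mouse brain. The mice were C57BL/6J. Young mice gave 2 WT Cre and 3 EC-K4KO libraries, and old mice gave 2 of each genotype. WT Cre mice carry a Cre under the Cdh5 promoter and an intact Klf4. EC-K4KO mice carry the same tamoxifen-inducible Cre with a floxed Klf4, which tamoxifen removes in adulthood. The paper states that control and knockout groups were treated alike. The Cdh5 promoter is active in endothelium throughout the body, so the deletion was not confined to the brain. The labels do not say whether each library is 1 animal, and p-values then measure the spread between these libraries.

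Tight junctions seal the gaps between neighbouring cells. In brain endothelium they are unusually complete and form the physical part of the blood-brain barrier. Claudins and the related proteins occludin and tricellulin span the membrane, immunoglobulin-like adhesion molecules bind across the gap, and scaffold proteins tie them to actin. An open promoter or distal region is a measure of chromatin, not of the level of the protein or its transcript.

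The stretches of DNA on which the main results turn are shown here, on GRCm38, 5′ to 3′ on the strand given. Capitals mark matches, on either strand, to fixed patterns for KLF (CCNCNCCC), ETS (CNGGAAG), AP-1 (TGANTCA), FOX (TGTTTAC), SOX (AACAAT) and TCF/LEF (CTTTGAT) factors. Matches may overlap each other. Promoters are RefSeq windows from 250 bases before to 50 bases after the TSS, and 7 of the 9 genes had an entry. The others are 300 bases of a peak. The Cldn5 promoter window (chr16:18776597-18776896, plus strand) lay under a peak in every library, apart from its upstream end in young WT Cre replicate 2.
Cldn5 promoter: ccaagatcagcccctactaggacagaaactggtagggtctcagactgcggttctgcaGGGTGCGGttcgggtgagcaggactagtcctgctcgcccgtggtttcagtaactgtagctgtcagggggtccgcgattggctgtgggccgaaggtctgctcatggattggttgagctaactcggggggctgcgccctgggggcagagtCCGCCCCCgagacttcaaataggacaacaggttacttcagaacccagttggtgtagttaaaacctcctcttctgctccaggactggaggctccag
The next stretch upstream (chr16:18776285-18776584, plus strand) lay under a peak in 7 libraries but under none in young WT Cre mice.
Cldn5 upstream flank: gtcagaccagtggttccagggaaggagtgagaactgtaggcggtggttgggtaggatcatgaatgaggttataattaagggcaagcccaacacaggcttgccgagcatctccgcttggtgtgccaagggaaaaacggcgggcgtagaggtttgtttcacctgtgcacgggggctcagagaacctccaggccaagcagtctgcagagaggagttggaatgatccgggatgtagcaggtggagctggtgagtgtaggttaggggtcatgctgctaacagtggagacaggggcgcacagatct
The centre of the intergenic region 56 kb upstream of Cldn5 (chr16:18720752-18721051, plus strand) is shown because its rank passed the test in 2 comparisons.
Cldn5 56 kb upstream: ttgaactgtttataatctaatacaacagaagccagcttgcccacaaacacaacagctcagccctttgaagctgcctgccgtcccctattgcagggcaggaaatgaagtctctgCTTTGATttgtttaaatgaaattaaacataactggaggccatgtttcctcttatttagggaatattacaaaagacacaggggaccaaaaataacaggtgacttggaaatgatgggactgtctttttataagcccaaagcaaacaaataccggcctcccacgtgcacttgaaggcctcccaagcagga
The promoter of Tjp1 (chr7:65371195-65371494, minus strand) was the other member promoter with a peak over its TSS in all 9 libraries.
Tjp1 promoter: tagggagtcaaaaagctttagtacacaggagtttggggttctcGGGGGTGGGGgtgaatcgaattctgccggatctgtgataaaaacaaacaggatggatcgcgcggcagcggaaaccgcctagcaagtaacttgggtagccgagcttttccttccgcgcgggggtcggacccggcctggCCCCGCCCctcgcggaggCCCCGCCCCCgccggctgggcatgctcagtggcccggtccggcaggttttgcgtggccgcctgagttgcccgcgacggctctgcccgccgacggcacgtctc
The centre of the region 48 kb upstream of Tjp1 (chr7:65418842-65419141, plus strand) rose in rank between young and old EC-K4KO mice.
Tjp1 48 kb upstream: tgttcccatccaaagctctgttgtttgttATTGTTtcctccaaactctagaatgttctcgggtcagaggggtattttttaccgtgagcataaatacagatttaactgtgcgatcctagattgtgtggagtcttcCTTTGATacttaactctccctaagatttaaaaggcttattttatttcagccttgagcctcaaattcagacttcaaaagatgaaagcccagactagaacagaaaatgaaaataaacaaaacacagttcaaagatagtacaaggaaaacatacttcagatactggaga
The Lsr promoter (chr7:30973420-30973719, minus strand) fell in rank in the same comparison.
Lsr promoter: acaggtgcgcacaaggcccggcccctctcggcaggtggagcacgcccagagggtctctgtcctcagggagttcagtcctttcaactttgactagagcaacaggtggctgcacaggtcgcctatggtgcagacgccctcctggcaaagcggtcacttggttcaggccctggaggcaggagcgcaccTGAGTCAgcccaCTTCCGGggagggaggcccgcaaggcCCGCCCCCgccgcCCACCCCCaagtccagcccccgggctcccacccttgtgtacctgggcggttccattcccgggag
The promoters of Ocln (chr13:100552669-100552968, minus strand) and F11r (chr1:171437311-171437610, plus strand) had peaks in 7 libraries and none in young WT Cre.
Ocln promoter: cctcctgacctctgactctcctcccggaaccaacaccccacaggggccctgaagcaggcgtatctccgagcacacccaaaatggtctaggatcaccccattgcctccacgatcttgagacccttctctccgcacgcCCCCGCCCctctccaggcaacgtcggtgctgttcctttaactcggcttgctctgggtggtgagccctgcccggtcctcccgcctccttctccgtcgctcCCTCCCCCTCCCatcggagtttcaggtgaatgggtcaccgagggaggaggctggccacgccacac
F11r promoter: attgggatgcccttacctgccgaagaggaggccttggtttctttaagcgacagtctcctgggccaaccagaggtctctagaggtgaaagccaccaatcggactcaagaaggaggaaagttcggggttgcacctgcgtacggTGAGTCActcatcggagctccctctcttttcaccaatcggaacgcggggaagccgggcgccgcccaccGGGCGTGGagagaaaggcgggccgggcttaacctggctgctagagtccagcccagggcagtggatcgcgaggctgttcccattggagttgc

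A KLF match was found in all 5 of these promoters, 2 in Cldn5, 5 in Tjp1, 2 in Lsr, 3 in Ocln and 1 in F11r, some of them overlapping. Such a match stood in 49.5% of all 32851 promoter windows, so its presence does not set these genes apart. The upstream flank of Cldn5 held a match to none of the 6 patterns. The windows 56 kb upstream of Cldn5 and 48 kb upstream of Tjp1 each held 1 TCF/LEF match. That pattern was found in 7.9% of the 1089 shared regions away from any TSS. The Tjp1 window also held 1 SOX match, against 16.8% of those regions. Lsr and F11r each held 1 AP-1 match, against 7.81% of all promoters, and Lsr also held 1 ETS match, against 31.9%. A match describes letters in a window and is not a bound site.

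The lists differed greatly in length, and every count of peaks moves with that. Young WT Cre lists held 6157 and 9598 peaks, young EC-K4KO lists 23848 to 27992, old WT Cre lists 32555 and 43893, and old EC-K4KO lists 39079 and 45026. Read depth is unknown here, and fewer open cells cannot be told apart from less signal per cell or less sequencing. The names of young and old libraries carry different prefixes, so a library series and age cannot be told apart. Of 15 endothelial marker genes, 6 to 7 had a TSS peak in young WT Cre libraries and 10 to 14 in the others. None of 8 microglial genes had one in any library, while mural genes had 0 to 3 of 8, astrocyte genes 0 to 4, neuronal genes 0 to 2, oligodendrocyte genes 0 to 2 and epithelial genes 0 to 1. The 6 epithelial genes at 0 in every library were Cdh1, Krt8, Krt18, Ttr, Cldn2 and Folr1. The others on that list, Epcam and Cldn3, had a TSS peak in some libraries, Cldn3 in 3. Epithelia use Cgn, Marveld2, Lsr and F11r too, and a share of epithelial cells was not tested. Klf4 had a peak over its TSS in all 9 libraries, and this does not show whether the floxed part of the gene is missing.

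The number of peaks at tight junction genes mostly rose with the length of the list. Old WT Cre replicate 1 had 44 in a list of 43893, fewer than the 55 in the 39079 of old EC-K4KO replicate 2. Young WT Cre libraries had 9 and 12, young EC-K4KO libraries 21, 35 and 36, old WT Cre libraries 44 and 38, and old EC-K4KO libraries 59 and 55. The groups do not overlap. Per 10000 peaks of the same list, the old WT Cre libraries lay below those of old EC-K4KO and young WT Cre, and every other pair of groups overlapped. For young mice that share was 13.6 ± 1.5 (SD, n = 2) with WT Cre and 11.8 ± 2.67 (SD, n = 3) with EC-K4KO. For old mice it was 10.8 ± 1.17 (SD, n = 2) with WT Cre and 13.6 ± 0.686 (SD, n = 2) with EC-K4KO. Among the strongest 6157 peaks of each library, the length of the shortest list, the tight junction genes held 8 to 11 in every library. Tjp1, which encodes the scaffold ZO-1, had the widest range of the 9 genes, from 2 peaks in each young WT Cre library to 22 and 20 in old EC-K4KO. Cldn5 went from 4 and 5 to 9 and 9.

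**Figure D1:**
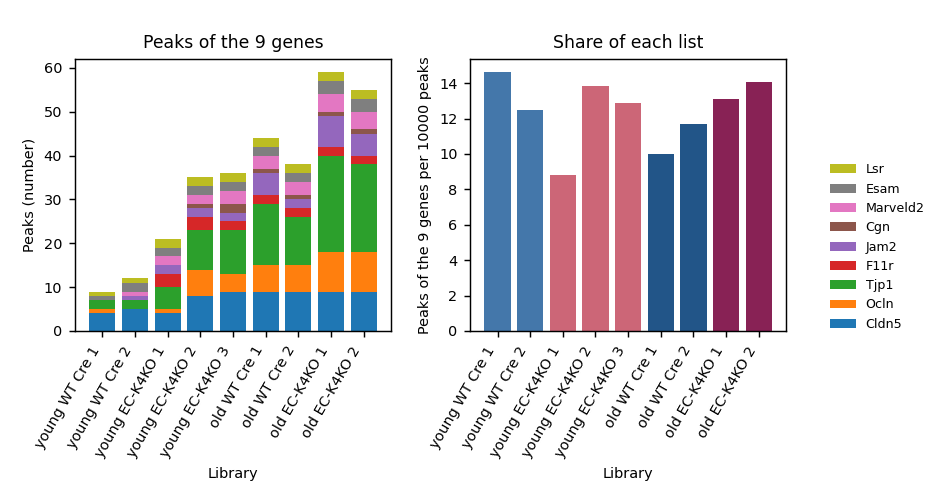
The left panel stacks the number of peaks of each of the 9 genes in each library; the right panel divides the total by the number of peaks in the same list, per 10000. The totals run from 9 to 59, while the shares run from 8.81 to 14.6, with old WT Cre below old EC-K4KO and young WT Cre.

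Peaks over a TSS were few in young WT Cre and present at all 9 genes in old mice. Of the 9 genes, 2 and 4 had one in young WT Cre, 7, 8 and 9 in young EC-K4KO, and 9 in each of the 4 old libraries. Over the same libraries the share of all protein-coding genes with a TSS peak went from 16.5% and 24.1% through 36.7% to 44.8% and on to 46.7% to 51%. In lists cut to the strongest 6157 peaks, 2 to 4 of the 9 genes had a TSS peak in young WT Cre, 3 to 4 in young EC-K4KO and 2 to 3 in old WT Cre. The old EC-K4KO lists had 2. Of all protein-coding genes, 13.8% had a TSS peak in every such list of young WT Cre and 19.5% in every one of young EC-K4KO. For old WT Cre and old EC-K4KO the shares were 20.2 and 21.1%. Counted by the authors' promoter class in place of TSS cover, 1 gene had a promoter peak in every young WT Cre library. The counts were 4 for young EC-K4KO, 5 for old WT Cre and 4 for old EC-K4KO. Of all protein-coding genes, 11.85% had a peak of that class in every young WT Cre library and 20.04% in every young EC-K4KO library. For old WT Cre and old EC-K4KO the shares by that class were 29.83 and 31.28%. In that class a peak is placed by its centre, and the TSS peaks of Jam2, Esam and Marveld2 were mostly classed as exon, intron or transcript end.

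Ocln, F11r and Lsr had a TSS peak in every young EC-K4KO library and in no young WT Cre library, a pattern shown by 17.9% of 11933 protein-coding genes with any TSS peak. Old WT Cre against young WT Cre showed it for those 3 genes with Cgn and Marveld2, and 35.5% of genes showed it. No member showed it in old EC-K4KO against old WT Cre, where 2.32% of genes did, or in old EC-K4KO against young EC-K4KO, where 5.35% did. The entry for Lsr rests on peak edges. Both young WT Cre libraries had a peak in the same region, whose nearest edge lay 32 and 50 bases upstream of the Lsr TSS. Ocln and F11r promoter peaks were in no library among the strongest 6157, so lists of equal length do not separate the groups at these genes.

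**Figure D2:**
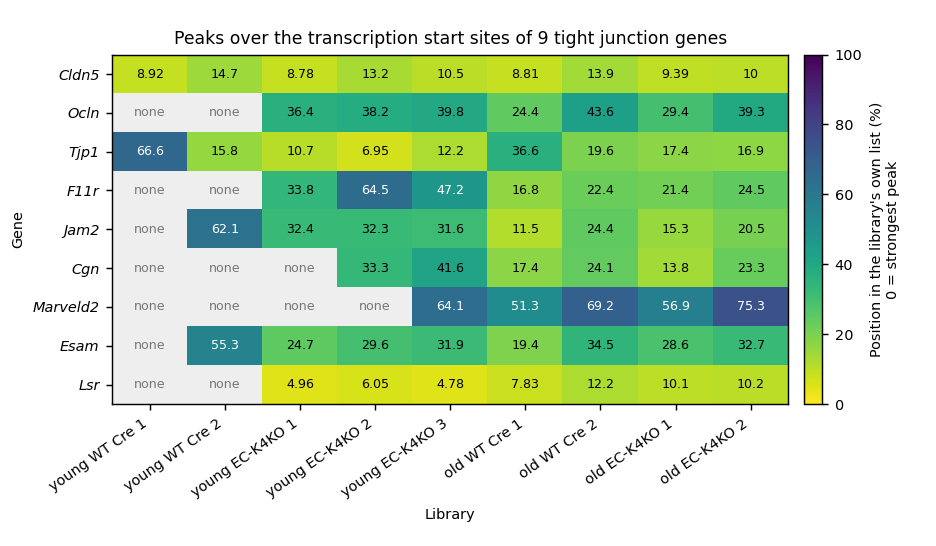
Each cell gives the position of the strongest peak over the TSS of a gene in the list of 1 library, as a percent of that list with 0 the strongest; grey cells have no such peak. Cldn5 stands at 8.78 to 14.7% in every library, and Marveld2, where it has a peak, at 51.3 to 75.3%. These positions move with the length of the list.

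Cldn5 encodes claudin-5, the main claudin of brain endothelium. Its promoter peak (chr16:18775718-18777284) was among the strongest member peaks in every library. It stood at 8.92 and 14.7% of the list in young WT Cre, 8.78, 13.2 and 10.5% in young EC-K4KO, 8.81 and 13.9% in old WT Cre, and 9.39 and 10.02% in old EC-K4KO. By its position in the library's own list, the promoter of Cldn5 did not separate the groups. Such positions move with the length of the list. In young WT Cre replicate 1, 8.92% is rank 549, while in old WT Cre replicate 1, 8.81% is rank 3865.

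The width of that peak did separate young WT Cre from the rest. It was 483 and 547 bp in young WT Cre, 1294, 1348 and 1290 bp in young EC-K4KO, 1511 and 1484 bp in old WT Cre, and 1518 and 1484 bp in old EC-K4KO. The gain lay upstream. The peak began 262 and 201 bp before the TSS in young WT Cre, 914 to 929 bp in young EC-K4KO, and 1065 to 1129 bp in the 4 old libraries, while its other end lay 220 to 437 bp past the TSS throughout. A stretch of 652 bp (chr16:18775933-18776584) was under a peak in those 7 libraries and in neither young WT Cre library.

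Peaks in young WT Cre were narrower in general. Over the 4872 regions with a peak in all 9 libraries, the median width was 377 and 444.5 bp in young WT Cre and 593.5 to 752 bp elsewhere, and in 74.1% of these regions both young WT Cre peaks were narrower than all other 7. The mean width of the Cldn5 promoter peak was 2.75 times as large in the other 7 libraries as in young WT Cre, against a median ratio of 1.63, and 5.91% of regions had a larger ratio. In the limma fit on log2 width minus the median of each library, the Cldn5 promoter was wider in young EC-K4KO than in young WT Cre by 0.69 ± 0.11 (SE, limma adjusted p = 0.0211). It was wider in old WT Cre than in young WT Cre by 0.77 ± 0.12 (limma adjusted p = 0.0174). Old EC-K4KO and old WT Cre differed by -0.09 ± 0.12 (limma adjusted p = 1), and the genotype by age interaction was -0.77 ± 0.16 (limma adjusted p = 0.124).

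Both calls on the width of the Cldn5 promoter depend on which libraries are fitted and on the fit. Over the fits that left out 1 library, young EC-K4KO exceeded young WT Cre by 0.63 to 0.748. For old WT Cre against young WT Cre the range was 0.741 to 0.799. Libraries outside the 2 groups compared enter a comparison only through the shared estimate of the spread. Young EC-K4KO against young WT Cre lost its call without young EC-K4KO replicate 2 or any 1 of the 4 old libraries, with a limma adjusted p of up to 0.0738. Old WT Cre against young WT Cre lost it without any 1 of the 4 old libraries, with up to 0.129. With library weights both missed the threshold (limma adjusted p = 0.212 and 0.101). Without centring, both differences were larger, 1.35 and 1.54.

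**Figure D3:**
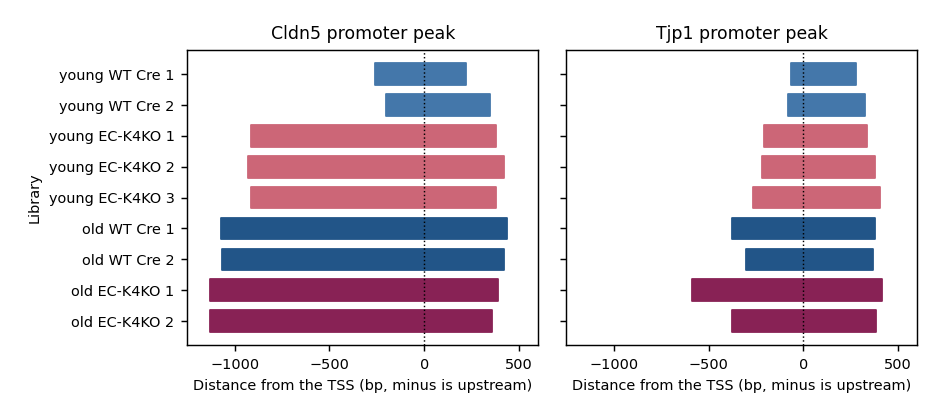
Bars span the promoter peak of Cldn5 (left) and Tjp1 (right) in each library, in bp from the TSS with upstream to the left. The Cldn5 peak begins 201 and 262 bp upstream in young WT Cre and at least 914 bp upstream in the other 7 libraries.

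For a comparison over the same regions in every library, peaks were also ranked by −log10 p among the 4872 shared regions. The ranks were turned into normal scores, in which a higher score is a stronger peak. A shared region must also have a peak in the short young WT Cre lists, so list length still decides which regions are ranked. The peak caller averages −log10 p over a broad peak, so this rank and the width are not independent. By this rank the Cldn5 promoter stood at 11.3 and 28.3% of the shared regions in young WT Cre, 41.4, 60.5 and 54.9% in young EC-K4KO, 63.6 and 71.9% in old WT Cre, and 67.0 and 63.8% in old EC-K4KO. Both young WT Cre libraries were stronger than all others. The share of all shared regions whose ranks separate groups in such a way was not counted, here or below. Unadjusted limma p-values under 0.05 were reached by 23.9% of them in young EC-K4KO and 26.6% in old WT Cre, each against young WT Cre. In old EC-K4KO against young EC-K4KO 24.4% did. Old WT Cre was lower than young WT Cre by a score of -1.36 ± 0.27 (limma adjusted p = 0.0201), a call lost without either old WT Cre library, where the limma adjusted p reached 0.122, and with library weights (limma adjusted p = 0.063). Young EC-K4KO differed from young WT Cre by -0.95 ± 0.25, which missed the threshold (limma adjusted p = 0.0569).

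The 8 Cldn5 regions other than the promoter lie upstream in intergenic sequence. Regions 72, 56 and 43 kb upstream had a peak in all 9 libraries. The region 37 kb upstream had one in young WT Cre replicate 2, 2 young EC-K4KO and all 4 old libraries. Those at 59, 32 and 15 kb were in young EC-K4KO replicates 2 and 3 and all 4 old libraries, and that at 49 kb in young EC-K4KO replicate 3 and all 4 old libraries. Young EC-K4KO replicate 1, which had the shortest list of its group, had only the 4 regions found in every library.

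**Figure D4:**
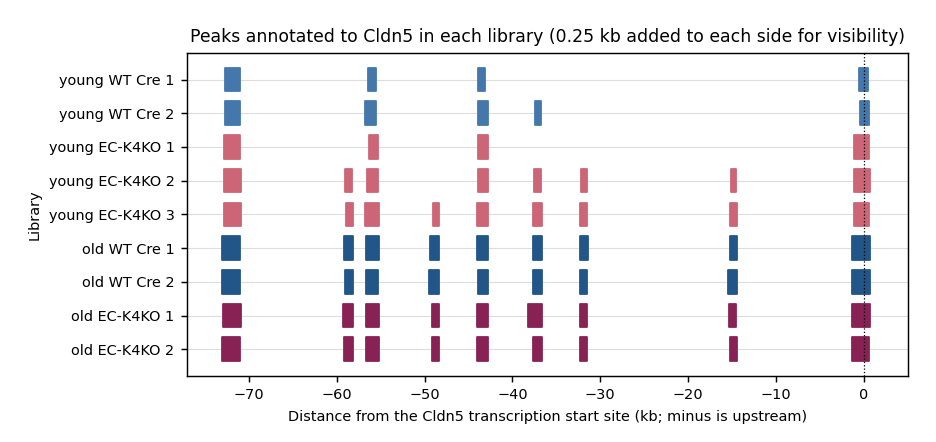
Bars mark the peaks annotated to Cldn5 in each library by distance from its TSS in kb, each drawn 0.25 kb wider on both sides. The 4 old libraries have 9 peaks each, and the libraries with short lists have 4 or 5.

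The region 56 kb upstream (chr16:18720309-18721448) fell in rank in young EC-K4KO. It stood at 71.8 and 66.1% of the shared regions in young WT Cre, 97.3, 90.0 and 94.3% in young EC-K4KO, 74.9 and 73.6% in old WT Cre, and 77.6 and 68.3% in old EC-K4KO. All 3 young EC-K4KO libraries were weaker than the other 6, and the share of shared regions with that pattern was not counted. The score differed by -1.10 ± 0.23 between young EC-K4KO and young WT Cre (limma adjusted p = 0.0309) and was 0.98 ± 0.23 higher in old EC-K4KO than in young EC-K4KO (limma adjusted p = 0.0365). The first call held only without a young WT Cre library or young EC-K4KO replicate 1, and the limma adjusted p reached 0.0798 without others and 0.226 with library weights. The second held only without a young WT Cre library, and reached 0.363. Ranked by fold enrichment, neither call held.

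The other shared distal regions of Cldn5 lay 43 and 72 kb upstream. The one at 43 kb (chr16:18733089-18733867) stood at 22.9 and 31.0% in young WT Cre, 47.3, 60.3 and 61.8% in young EC-K4KO, 40.97 and 47.3% in old WT Cre, and 47.6 and 43.4% in old EC-K4KO. Both young WT Cre libraries ranked it above all others, a pattern whose share was likewise not counted. The score difference between young EC-K4KO and young WT Cre, -0.78 ± 0.21, missed the threshold (limma adjusted p = 0.0596). The one at 72 kb (chr16:18704012-18705767) was the widest of the shared member regions on average, at 1241 and 1205 bp in young WT Cre, 1278, 1346 and 1468 bp in young EC-K4KO, 1623 and 1613 bp in old WT Cre, and 1464 and 1531 bp in old EC-K4KO. Relative to the library median it was narrower in young EC-K4KO than in young WT Cre by -0.51 ± 0.12 (limma adjusted p = 0.0344), but without centring the sign turned to 0.16, so the direction comes from the centring. That call held only without a young WT Cre library or young EC-K4KO replicate 1, and the limma adjusted p was at most 0.089 without others and 0.219 with library weights.

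Across the 9 shared member regions, 1 was called in rank in young EC-K4KO against young WT Cre, against 4.15% of all 4872 regions. Old WT Cre against young WT Cre called 1 of 9, against 6.08%, and old EC-K4KO against young EC-K4KO called 3 of 9, 2 higher and 1 lower, against 6.51%. In width, 3 of 9 were called in young EC-K4KO against young WT Cre, 1 wider and 2 narrower, against 13.5% of all, of which 247 were wider and 413 narrower. Without centring, 2886 regions were called in that comparison, each of them wider. Old WT Cre against young WT Cre called 1 of 9 in width, against 12%, with 238 wider and 345 narrower, and without centring 3433, each of them wider. No member was called in width in old EC-K4KO against young EC-K4KO, against 0.123%, or in the interaction, against 0.349%.

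The genotypes were not separated in old mice by this fit. In old EC-K4KO against old WT Cre limma called 0% of regions in rank and 0% in width, with 189 and 93 regions at an unadjusted p under 0.05, none of them a member. With library weights in the same fit, 42 regions were called in rank and 12 in width. The 9 member score differences in rank lay between -0.13 ± 0.22 and 0.68 ± 0.51. The interaction called 0% of regions in rank, with 525 at an unadjusted p under 0.05, 3 of which were Cldn5 regions, and its limma adjusted p for these was 0.361 or more.

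**Figure D5:**
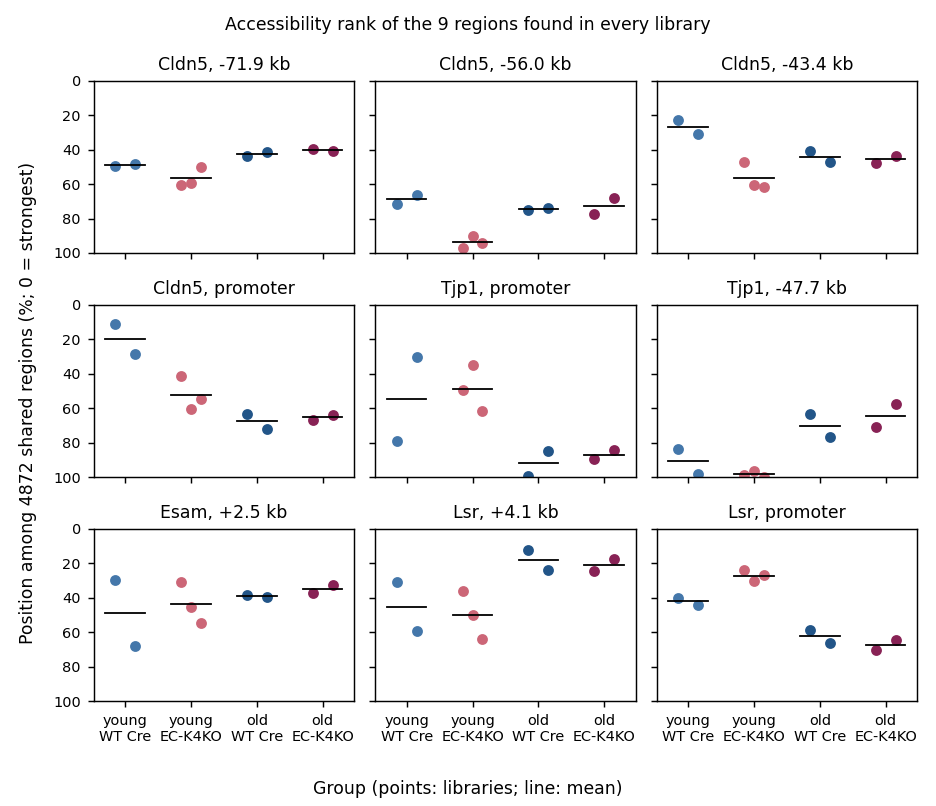
Each panel shows 1 member region found in every library. The vertical axis gives its position among the 4872 shared regions in percent, with the strongest at the top, each point is a library, and each line is a group mean. The Cldn5 promoter ranks highest in young WT Cre, and the region 56 kb upstream of Cldn5 ranks lowest in the 3 young EC-K4KO libraries.

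Tjp1 had 27 regions, more than any other member, and 2 of them were shared by all libraries. Its promoter peak (chr7:65370826-65371826) was 347 and 407 bp wide in young WT Cre, 546, 596 and 674 bp in young EC-K4KO, 758 and 671 bp in old WT Cre, and 1001 and 764 bp in old EC-K4KO. It stood at 66.6 and 15.8% of the list in young WT Cre, so these replicates were far apart, at 10.7, 6.95 and 12.2% in young EC-K4KO, at 36.6 and 19.6% in old WT Cre, and at 17.4 and 16.9% in old EC-K4KO. Among the shared regions, which are the same in every library, it stood at 79.1 and 30.3% in young WT Cre and 49.2, 34.8 and 61.8% in young EC-K4KO. It stood at 99.5 and 84.6% in old WT Cre and at 89.7 and 84.3% in old EC-K4KO. By this rank the young groups overlapped, and all 4 old libraries were weaker than all 5 young ones. How many shared regions show that order was not counted. Its score differed by -1.66 ± 0.51 in old WT Cre against young WT Cre (limma adjusted p = 0.0763) and by -1.17 ± 0.47 in old EC-K4KO against young EC-K4KO (limma adjusted p = 0.156).

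The region 48 kb upstream of the Tjp1 TSS (chr7:65418029-65419281) rose in rank between young and old EC-K4KO mice. It stood at 98.8, 96.4 and 99.8% of the shared regions in young EC-K4KO and at 71.0 and 57.6% in old EC-K4KO, with 83.5 and 98.4% in young WT Cre and 63.7 and 76.5% in old WT Cre. All 4 old libraries ranked it above all 5 young ones, a pattern whose share over all shared regions was not counted. The score was 1.95 ± 0.38 higher in old EC-K4KO than in young EC-K4KO (limma adjusted p = 0.0202) and 1.02 ± 0.42 higher in old WT Cre than in young WT Cre (limma adjusted p = 0.153). The call was lost without young EC-K4KO replicate 3 or either old EC-K4KO library, with a limma adjusted p of up to 0.241, and was lost by fold enrichment. This and the other upstream regions lie within a longer Tjp1 gene model, whose far TSS had a peak in both old EC-K4KO libraries and in no other, and those 2 peaks are not among the members.

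Lsr encodes a receptor also called angulin-1, found where 3 cells meet. Its promoter shares a region (chr7:30973210-30974267) with the TSS of Fam187b, which runs the other way, and the authors' annotation gives the peak to Fam187b. The region stood at 39.9 and 44.2% of the shared regions in young WT Cre, 24.0, 30.5 and 27.1% in young EC-K4KO, 58.6 and 66.1% in old WT Cre, and 70.1 and 64.4% in old EC-K4KO. The 4 groups did not overlap, except that the old groups overlapped each other, a pattern whose share over all shared regions was not counted. Its score was lower by -1.06 ± 0.20 in old EC-K4KO than in young EC-K4KO (limma adjusted p = 0.0185). This call was lost without either old EC-K4KO library and with a replicate block, and held by fold enrichment. Over the fits that left out 1 library the difference was -1.14 to -0.978. Old WT Cre against young WT Cre gave -0.52 ± 0.22 (limma adjusted p = 0.158).

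The intron region of Lsr 4.1 kb inside the gene (chr7:30969102-30969656) went the other way. It stood at 30.9 and 59.4% in young WT Cre, 36.1, 50.2 and 64.2% in young EC-K4KO, 12.1 and 23.7% in old WT Cre, and 24.2 and 17.6% in old EC-K4KO. All 4 old libraries ranked it above all 5 young ones, and the share of shared regions with that order was not counted. At 1.35 to 3.62% of the list it was the strongest member region in each old library. Neither age comparison passed the threshold, with 0.81 ± 0.32 in WT Cre (limma adjusted p = 0.135) and 0.82 ± 0.29 in EC-K4KO (limma adjusted p = 0.119).

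Esam, F11r (JAM-A) and Jam2 (JAM-B) encode immunoglobulin-like adhesion molecules. The strongest Esam region lay in an intron 2.5 kb inside the gene (chr9:37530038-37531058) and holds the start of shorter Esam transcripts outside the basic set. It was 679 and 878 bp wide in young WT Cre, 905, 892 and 938 bp in young EC-K4KO, 1016 and 992 bp in old WT Cre, and 1021 and 965 bp in old EC-K4KO. Relative to the library median it was narrower by -0.43 ± 0.11 in young EC-K4KO than in young WT Cre (limma adjusted p = 0.0437), but without centring the difference was 0.24, with the sign turned. The call held only without young WT Cre replicate 1 or young EC-K4KO replicate 1, with a limma adjusted p of up to 0.111, or 0.231 with library weights. The TSS peak of Esam was absent in young WT Cre replicate 1, 219 bp wide in replicate 2, and 790 to 1673 bp wide in the other 7 libraries.

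F11r had its promoter peak and an intron peak 2.8 kb inside the gene in all 7 libraries outside young WT Cre. The promoter peak stood at 33.8, 64.5 and 47.2% of the list in young EC-K4KO, 16.8 and 22.4% in old WT Cre, and 21.4 and 24.5% in old EC-K4KO. These positions move with the length of the list, and by rank over the regions in at least 5 libraries the score of old EC-K4KO differed from young EC-K4KO by 0.34 ± 0.26 (limma adjusted p = 0.473). The Jam2 TSS peak was absent in young WT Cre replicate 1 and stood at 62.1% in replicate 2, 32.4, 32.3 and 31.6% in young EC-K4KO, 11.5 and 24.4% in old WT Cre, and 15.3 and 20.5% in old EC-K4KO. A Jam2 intron region 23 kb inside the gene was in the same 7 libraries as F11r.

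Ocln (occludin) and Marveld2 (tricellulin) encode 4-pass membrane proteins of the same family and lie next to each other on chromosome 13. The Ocln promoter peak stood at 36.4, 38.2 and 39.8% of the list in young EC-K4KO, 24.4 and 43.6% in old WT Cre, and 29.4 and 39.3% in old EC-K4KO, so these groups overlapped. Ocln had 11 regions, and those 4 and 13 kb from its TSS were in 2 of 3 young EC-K4KO libraries and all 4 old ones, while those 19 and 26 kb inside the gene were in the 4 old libraries alone. The TSS peak of Marveld2 was weak, at 64.1% in young EC-K4KO replicate 3 and 51.3 to 75.3% in the 4 old libraries. The strongest regions of Marveld2 lay away from the TSS. The one 16 kb inside the gene (chr13:100600328-100601044) stood at 14.7, 22.4 and 15.2% in young EC-K4KO, 16.6 and 27.1% in old WT Cre, and 13.6 and 18.1% in old EC-K4KO, and had no peak in young WT Cre.

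Cgn encodes cingulin, a scaffold that binds ZO-1, and had 2 regions. Its promoter peak was narrow, 254 to 456 bp, and was present in young EC-K4KO replicates 2 and 3 and in the 4 old libraries. It stood at 33.3 and 41.6% of the list in the young libraries and at 13.8 to 24.1% in the old. By rank over the regions in at least 5 libraries, with 1 young EC-K4KO value filled in, the score of old EC-K4KO differed from young EC-K4KO by 0.59 ± 0.29 (limma adjusted p = 0.258).

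The members with gaps were also ranked with the 20860 regions that had a peak in at least 5 of 9 libraries. Regions without a peak in a library were tied below all its peaks and shared the mean of the tied ranks. That fill lies higher in a library with more gaps, so an absent peak can score above a weak peak of a longer list. The Tjp1 region 12 kb upstream thus scored lower in old WT Cre (-0.85 ± 0.43) than in young WT Cre, which had no peak there. Of 34 member regions tested, 1 was called in young EC-K4KO against young WT Cre, against 4.3% of all, 3 in old WT Cre against young WT Cre, against 14%, 2 in old EC-K4KO against young EC-K4KO, against 4.03%, and 0 in old EC-K4KO against old WT Cre, against 0.0288%. The calls against young WT Cre at the Marveld2 region 16 kb inside the gene, in both comparisons, and at the Tjp1 region 50 kb upstream, in old WT Cre, rest on filled-in values in both young WT Cre libraries. The young WT Cre values there are the fill alone, so no difference is read from these calls. The Tjp1 region 12 kb upstream was called lower in old EC-K4KO than in young EC-K4KO (-1.96 ± 0.39, limma adjusted p = 0.0337). A young and an old EC-K4KO value were filled in there. Its peaks were weak, at 76.9 and 75.0% of the list in young EC-K4KO replicates 1 and 3 and 89.1% in old EC-K4KO replicate 2. The fill differs with the number of gaps in each library, so no difference is read from this call either. The Cldn5 and Lsr promoters made up the rest.

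Away from the TSSs there were 59 member regions, and 13 of the 68 member regions were in 1 library alone. Young WT Cre had 9 of the 59 in any library, young EC-K4KO 34, and the old groups 36 (WT Cre) and 53 (EC-K4KO). Such counts move with list length, and young EC-K4KO pools 3 libraries against 2 in each other group. The share of all regions away from a TSS found in each group was not counted, so no difference is read from them. Of the 46 in at least 2 libraries, 5 were in every young EC-K4KO and no young WT Cre library, against 6.07% of 27796 such regions. The same pattern held for 18 in old WT Cre against young WT Cre (42.2% of regions), 10 in old EC-K4KO against old WT Cre (14.9%), while 16 showed it in old EC-K4KO against young EC-K4KO (35.3%). The 10 regions of old EC-K4KO that old WT Cre lacked were 5 of Tjp1, 2 of Ocln and 1 each of Marveld2, Jam2 and Esam. None of them was among the strongest 6157 peaks of any library, and old EC-K4KO lists were longer on average than old WT Cre lists.

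Genes around the members showed the same order of groups. Of 24 further tight junction genes found in the annotation, 4 to 6 had a TSS peak in young WT Cre libraries, 11 to 18 in young EC-K4KO, with 17 to 18 in old WT Cre and 18 to 19 for old EC-K4KO. Of 12 adherens junction genes, the neighbouring cadherin-based contacts, the counts were 5 to 6, 10 to 12, 12 and 12. The share of all protein-coding genes with a TSS peak rose too, from 16.5 and 24.1% in young WT Cre to 46.7% or more in old mice. Of the 7 shared TSS regions of the further tight junction genes, 2 were called lower in old WT Cre than in young WT Cre, a comparison in which 186 of all 4872 regions were called lower and 6.08% in either direction. These were Mpp5, a polarity scaffold (-1.64 ± 0.28, limma adjusted p = 0.014), and Magi1, a scaffold (-1.42 ± 0.35, limma adjusted p = 0.0412). In rank, no region of these 7 was called in any other comparison, and none of the 6 shared adherens junction regions was called in rank or width in any. In old WT Cre against young WT Cre the median score difference was -0.02 over the 7, 0.06 over the 6, -1.36 over the 3 member regions at a TSS, -0.16 over all 9 member regions and 0.02 over all regions.

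The shared TSS regions whose rank over the 9 libraries was most like that of the Cldn5 promoter were those of Syncrip, Crk, and Cul4a with Pcid2. Their mean absolute difference from Cldn5 was 5.51, 5.996 and 6.43 percentage points.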

How the data were processed

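Omni-ATAC-seq was run on nuclei from flow-sorted ECs of mouse brain, giving 9 libraries. As the study's methods state, the authors used TrimGalore for trimming, Bowtie2 for mapping to mm10 and MACS2 for broad peaks. The deposited lists, 1 for each library, give a score, a fold enrichment (a ratio over the local background), a −log10 p and a −log10 q for each peak, all averaged over the broad peak. The deposited annotation gives a gene, a class and a distance to the TSS for each peak. No peak ran past the end of its GRCm38 (mm10) chromosome. Read counts were not analysed here and depth is unknown, so intervals from counting are not given.

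Peaks were merged where they shared 1 bp. The 4872 regions with a peak in all 9 libraries were ranked by the deposited −log10 p, the strongest peak of a library standing for the region, and widths were summed. Normal scores of the ranks, and log2 widths minus the library median, were fitted with limma 3.58.1 in R 4.3.3, with all 4 groups sharing 1 estimate of the spread. Adjusted p-values are Benjamini-Hochberg over all regions, with a threshold of 0.05. The fits were tested on simulated data. Tables were made with Python 3.11.15 and pandas 2.3.3. Genes were placed with GENCODE M21. All 9 genes are named, with their regions present in at least 5 libraries and their strongest region, up to 6 called genes of 2 further lists (1 result among these is not reported here), and for the Cldn5 promoter the 3 shared TSS regions with the smallest mean absolute rank difference. Alternatives were ranking by fold, library weights, a q under 0.01, merging at 100 bp, regions in at least 5 libraries, uncentred width, a replicate block and leaving out each library. The members, lists and tests were chosen with earlier results of these data known.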

Additional observations from a re-analysis of the deposited data

How the results depend on the processing

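Of the 9 member results called in rank or width, none kept its call in all 9 fits that left out 1 library, where a group cut to 1 library is assumed to vary like the others. None changed direction except the narrower Cldn5 region 72 kb upstream and Esam intron region in young EC-K4KO, which turned to 0.16 and 0.24 when width was not centred. In old WT Cre against young WT Cre, the uncalled differences in width of the same regions and of the Lsr promoter turned to 0.40, 0.38 and 0.45. The causes were not tested.

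The numbers of called regions moved more. Leaving out 1 library gave 4 to 657 regions in rank for young EC-K4KO against young WT Cre, 0 to 769 for old WT Cre against young WT Cre, 0 to 741 for old EC-K4KO against young EC-K4KO, 0 to 31 for the interaction and 0 to 0 for old EC-K4KO against old WT Cre. In width these ranges were 51 to 1388, 20 to 1382, 0 to 17, 0 to 319 and 0 to 0. In the same order, ranking by fold gave 82 and 662 for the first 2, library weights 4, 35, 1281 and, for old EC-K4KO against old WT Cre, 42, and regions in at least 5 libraries 897, 2925, 841 and 6. In width, library weights gave 13, 37, 112 and, for old EC-K4KO against old WT Cre, 12, and uncentred width gave 2886, 3433 and, for the interaction, 433. A q under 0.01 or merging at 100 bp moved no count by over 1.5 times.

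Same-numbered libraries deviated together only weakly, with correlations in rank of -0.01 to 0.12, so the numbers were not taken as pairs. With a replicate block, rank gave 0, 187 and 55 calls and width 14, 68 and 0, in that order, and 0 for the interaction in width. Of the 9 member calls, 8 were lost with the block, with limma adjusted p-values of 0.054 to 0.152 and 0.0627 for the Lsr promoter, while the rank of the Cldn5 promoter in old WT Cre against young WT Cre held (limma adjusted p = 0.037). Library weights lost 6.

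By the authors' promoter class, the genes with a peak in every library of a group were 1 for WT Cre and 4 for EC-K4KO in young mice, and 5 and 4 in old mice. In this order the shares of all protein-coding genes were 11.85, 20.04, 29.83 and 31.28%. By cover of a TSS the gene counts were 2, 7, 9 and 9, against 14.79, 34.24, 44.96 and 48.53% of all protein-coding genes. In lists of equal length the gene counts were 1, 2, 1 and 1 by class, against 11.13, 12.28, 14.2 and 14.54%. They were 2, 3, 2 and 2 by cover of a TSS, against 13.8, 19.5, 20.2 and 21.1%, an alternative chosen after seeing the data. Groups of 2 or 3 libraries and unknown depth limit every comparison.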
